A study of Mus musculus with 10 samples.

Results

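The 61 genes described here are the mouse solute carriers of the amino acid transporter families Slc1a, Slc6a, Slc7a, Slc36a, Slc38a and Slc43a, together with Slc3a1 and Slc3a2, chosen by symbol from the 53379 genes of the count tables. They were measured by RNA-seq in cells of the Emx1+ lineage purified by FACS from the cortex at E16. There were 7 libraries of control MADM-7 and 3 of cKO-Cdkn1c-MADM-7, each made from 400 MADM-labelled cells of a single embryo. Both genotypes carried the MADM cassettes on Chr. 7 (GT and TG) and 1 Emx1-Cre allele, on a background that the labels give as CD1 and the study's methods as mixed C57BL/6J and CD1. Controls were GT/TG for MADM-7 and Emx1 Cre/+. The cKO embryos were Emx1 Cre/+ too, with the Cdkn1c-flox allele recombined onto both the GT and the TG chromosome. Recombination therefore depends on Cre in the Emx1 lineage, which gives rise to excitatory neurons and glia of the cortex, and the sort took the labelled cells of that lineage as a mixture. The question is how the expression of these carriers differs between cells with and without the Cdkn1c locus.

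Amino acid carriers move amino acids across membranes, and their families differ in substrate and in the ion or amino acid exchanged. Some Slc7a proteins (light chains) reach the cell surface only when bound to a heavy chain, Slc3a1 or Slc3a2, whereas the cationic transporters of the Slc7a family work without one. In the cortex, Slc1a carriers take up glutamate and small neutral amino acids, Slc6a carriers take up GABA, taurine, creatine and some neutral amino acids with sodium, and Slc38a carriers take up glutamine and related amino acids.

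Reads on genes ran from 1738220 to 3362487 per library, and the share of reads outside genes fell into a lower range of 5.47 to 8.64% (cKO replicate 3, control replicates 1, 2, 6 and 7) and a higher one of 12.8 to 16.7% (cKO replicates 1 and 2, control replicates 3, 4 and 5). Cdkn1c, the deleted gene, measured 3.94 to 10.8 CPM (counts per megaread, scaled by library) in cKO and 67.5 to 131 CPM in control libraries, with no overlap (two-sided exact permutation p = 0.0167, the smallest these groups allow). Emx1 itself did not pass the test (log2 fold change 0.11, adjusted p = 0.893 by edgeR). Of the 2 Emx1 lineage markers listed, Emx1 and Emx2, neither was called, but 1 had an unadjusted p under 0.05 (median log2 fold change 0.51). Their summed level was 97.7 to 216 CPM in cKO and 89.6 to 182 CPM in controls. The cell type markers moved with genotype in part. All 5 Cajal-Retzius markers listed (Reln, Trp73, Calb2, Lhx5, Ndnf) rose by edgeR and limma, and 3 of them by DESeq2, with a summed level of 558 to 677 CPM in cKO against 16.3 to 173 CPM in controls. Of the 10 projection neuron markers listed, 3 fell, Neurod6 and Neurod2 among them, and none rose, while 7 were not called, and the summed level was 4998 to 6487 CPM against 7280 to 9815 CPM. Summed markers of endothelium (35.1 to 56.3 CPM in cKO, 44.4 to 73.7 CPM in controls), pericytes and meninges (27.0 to 46.9, 12.0 to 31.0), microglia (0.788 to 33.1, 0 to 6.11), choroid plexus and hem (7.88 to 58.6, 0 to 25.3), oligodendrocyte precursors (7.88 to 28.3, 0 to 84.2), blood (20.4 to 2310, 0.719 to 1822) and intermediate progenitors (631 to 869, 512 to 962) overlapped between genotypes. Fewer cells of a type and less RNA per cell cannot be told apart in bulk samples. The part of these shifts in the carrier differences was not tested.

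Of the 61 carriers, 32 passed the filter of a mean of 10 reads per library, and 5 of these rose in cKO (Slc7a3, Slc7a5, Slc3a2, Slc1a2 and Slc7a10) while 1 fell (Slc6a15). Over all 11551 genes tested, 2.27% were called higher and 0.883% lower (edgeR quasi-likelihood test, adjusted p under 0.05). All cKO libraries lay above all controls for 4 carriers, where 3.32% of all genes did so, and below all controls for 1, where 2.68% of all genes did so. An unadjusted p under 0.05 was reached by 10 of the 32, against 16.4% of all genes. The median log2 fold change was 0.30 over the carriers tested and 0.01 over all genes tested, with 19 carriers above 0 and 13 below. Slc7a3, Slc7a10 and Slc38a6 passed the filter only through their cKO reads, so these counts are a description of the carriers that passed and not of the families as a whole. The plot of fold changes shows that most carriers lay within 1 log2 unit of 0. Of the 26 that were not called, 13 had a confidence interval wholly between -1 and 1, so a doubling in either direction lies outside it.

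**Figure D1:**
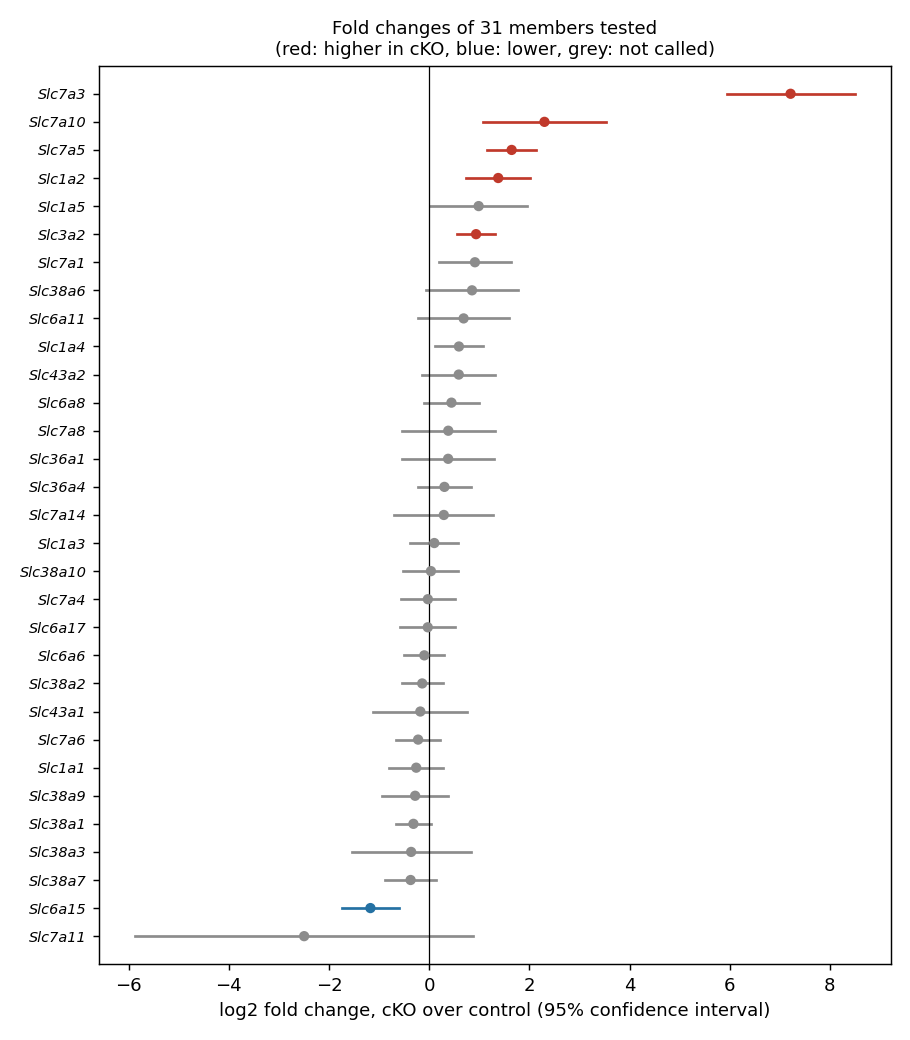
Log2 fold change of cKO over control (x axis) for 31 of the 32 carriers tested, one per line in order of size, with points for the edgeR estimate and lines for its 95% confidence interval; red marks the 5 called higher, blue the 1 called lower and grey those not called. Slc7a3 stands alone at 7.21, and the widest interval belongs to Slc7a11, from -5.87 to 0.88.

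The largest change was in Slc7a3, which encodes CAT3, a transporter of arginine, lysine and ornithine. Its reads numbered 273, 240 and 260 in the cKO libraries. In the 7 controls they ran from 0 to 4, with a median of 2 and 12 reads in all. Every cKO library was far above every control, and 2 controls held no read. Scaled to library size this was 92.1, 94.5 and 110.3 CPM in cKO against a control mean of 0.581 ± 0.519 CPM (SD, n = 7), a ratio of means of 170.2. The fitted log2 fold change was 7.21 (SE 0.62, 95% confidence interval 5.94 to 8.49, adjusted p = 1.17e-15 by edgeR). Because the control value rests on 12 reads, the size of the ratio is known less well than its direction. The gene lies on chromosome X, GRCm38 101079210 to 101086020 on the minus strand, and in GENCODE M21 none of its exons overlaps an exon of another gene.

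The other cationic transporters did not share this pattern. Slc7a1, which encodes the widely expressed CAT1, measured 24.6, 30.4 and 41.4 CPM in cKO and 6.11 to 30.9 CPM in controls (median 16.1), so the groups overlapped (log2 fold change 0.91, SE 0.34, adjusted p = 0.177 by edgeR). Slc7a4, a relative for which cationic transport has not been established, had a log2 fold change of -0.03 (95% confidence interval -0.57 to 0.52), and its sign turned positive in several alternative settings. A part of its exons, 13.3% of their length, overlaps P2rx6 on the opposite strand, and reads there are not counted. Slc7a14 measured 9.36 ± 4.05 CPM (SD, n = 3) against 7.88 ± 4.44 CPM (SD, n = 7) and was not called. Slc7a2, which encodes CAT2, had 8 reads over the 3 cKO libraries and 76 over the 7 controls, with a mean just under the filter.

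Compared per length, Slc7a3 ranked 37 among all 61 carriers in controls, at 0.154 ± 0.137 CPM per kb of exon (SD, n = 7), and 3 in cKO, at 26.2 ± 2.61 (SD, n = 3). The 5 cationic transporters summed to 11.8 to 15.0 CPM per kb in controls and 35.3 to 43.3 in cKO, without overlap. In cKO, 56.2 to 70.7% of that sum came from Slc7a3, and in controls 0 to 2.75%. The share of Slc7a4, the leading member in every control, was 64.8 to 90.3% there and 15.6 to 34.7% in cKO, while its own level per length was 10.4 ± 1.82 in controls (SD, n = 7) and 10.1 ± 4.77 in cKO (SD, n = 3). The lower share of Slc7a4 therefore sits beside a higher sum and not beside a called change of the gene.

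**Figure D2:**
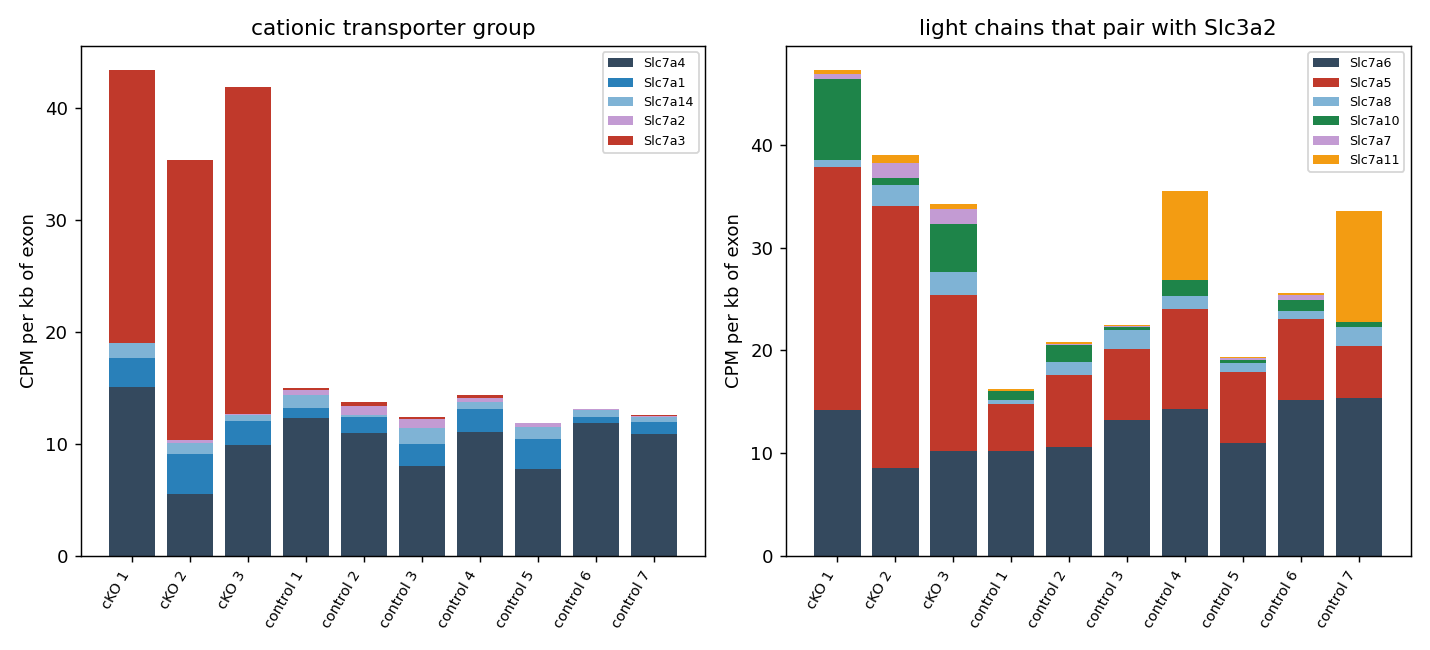
Level per length (CPM per kb of exon, y axis, from 0) of the 5 cationic transporters (left) and of the 6 light chains that pair with Slc3a2 (right), stacked by gene, in each of the 3 cKO and 7 control libraries. Slc7a3 forms 56.2% or more of the left stack in every cKO library and 2.75% or less in every control, and on the right Slc7a11 is tall only in control replicates 4 and 7.

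Slc3a2 encodes the heavy chain 4F2hc (CD98), which carries several light chains to the plasma membrane. It was the most highly expressed carrier per length in both genotypes. Its level was 472, 258 and 266 CPM in cKO replicates 1, 2 and 3, and 146 to 214 CPM in controls with a median of 175 CPM. All cKO libraries were above all controls, with replicate 1 far above the other two. The log2 fold change was 0.94 (SE 0.18, 95% confidence interval 0.56 to 1.31, adjusted p = 0.00504 by edgeR). Without cKO replicate 1 it was 0.59 (adjusted p = 0.0383 by edgeR), and the call was lost in the fit of the libraries numbered 1 to 3 alone (0.93, adjusted p = 0.0915 by edgeR). Slc3a1, the heavy chain known from kidney and intestine, had 6 reads in all 10 libraries together. Prepl on the opposite strand overlaps 26.5% of its exon length, and reads there are not counted. With the columns for both strands summed, its count was 70.3 times as large, and reads of Prepl cannot be told apart in it.

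Slc7a5, which encodes the light chain LAT1 and with Slc3a2 exchanges large neutral amino acids such as leucine for glutamine, rose more than its partner. It measured 87.4, 94.5 and 56.4 CPM in cKO replicates 1, 2 and 3. Controls ran from 17.1 to 36.0 CPM with a median of 25.6 CPM, so the groups were fully apart. The log2 fold change was 1.65 (SE 0.23, 95% confidence interval 1.16 to 2.13, adjusted p = 0.000352 by edgeR), from a control mean of 25.4 ± 6.38 CPM (SD, n = 7) to 79.4 ± 20.3 CPM (SD, n = 3). The call held in all 21 alternative settings, with log2 fold changes of 1.51 to 1.83. The difference between the changes of Slc7a5 and Slc3a2 was not tested.

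Slc7a6, encoding the light chain y+LAT2, which exchanges cationic for neutral amino acids, was per length the most abundant light chain in every control and was not called. It measured 39 to 65.1 CPM in cKO and 46.4 to 70.4 CPM in controls (log2 fold change -0.22, 95% confidence interval -0.67 to 0.23, adjusted p = 0.675 by edgeR). Of the summed level per length of the 6 light chains that pair with Slc3a2, the part of Slc7a5 was 44.4 to 65.4% in the cKO libraries, against 14.8 to 35.7% in controls. The share of Slc7a6 was 21.9 to 30.1% in cKO against 40.3 to 62.7% in controls, and neither share overlapped between genotypes. Both are parts of 1 sum and not separate results. The lower share of Slc7a6 sits beside a higher Slc7a5 and not beside a called change of Slc7a6. With Slc7a11 left out of the sum, the shares of Slc7a5 were 45.0 to 66.7% and 21.9 to 36.1%. The summed level of these light chains over that of Slc3a2 ran from 0.341 to 0.858 in controls and from 0.354 to 0.534 in cKO, and these ranges overlapped.

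Slc7a10 encodes Asc-1, a light chain that exchanges small neutral amino acids including D-serine. Its reads were 49, 4 and 23 in cKO replicates 1, 2 and 3 and 1 to 10 in controls, with a median of 5. The cKO replicate 2 value lay inside the control range. The log2 fold change was 2.30 (SE 0.59, 95% confidence interval 1.07 to 3.53, adjusted p = 0.0248 by edgeR), and the call was lost in 10 of 21 alternative settings. Without cKO replicate 1, which holds most of its cKO reads, the log2 fold change was 1.51 (adjusted p = 0.256 by edgeR). Lrp3 on the opposite strand shares 17.9% of its exon length, and reads in shared exons are not in these counts. With the columns for both strands summed, which adds reads of Lrp3, the log2 fold change was 0.51 (adjusted p = 0.381 by edgeR). Reads of these overlapping genes cannot be told apart without strand, so the value of Slc7a10 is uncertain. Slc7a8, encoding the light chain LAT2, was at 8.33 ± 4.02 CPM (SD, n = 3) against 6.00 ± 2.68 CPM (SD, n = 7) and was not called.

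Slc7a11 encodes xCT, the light chain that exports glutamate in exchange for cystine, and its controls fell into separate ranges. It measured 5.40, 10.6 and 6.36 CPM in cKO. Control replicates 4 and 7 were at 121 and 151 CPM, and the other 5 controls lay between 1.75 and 2.88 CPM. The cKO libraries were thus above 5 controls and far below 2. Over all libraries the log2 fold change was -2.50 (95% confidence interval -5.87 to 0.88, adjusted p = 0.393 by edgeR), and limma gave -0.16 on the same libraries (adjusted p = 0.971). Without control replicate 7 alone, edgeR gave -1.67. Leaving out these controls together, a setting chosen after seeing the data, gave 1.71 (adjusted p = 0.0733 by edgeR), which also missed the threshold. Neither direction can be given for this gene from these libraries.

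**Figure D3:**
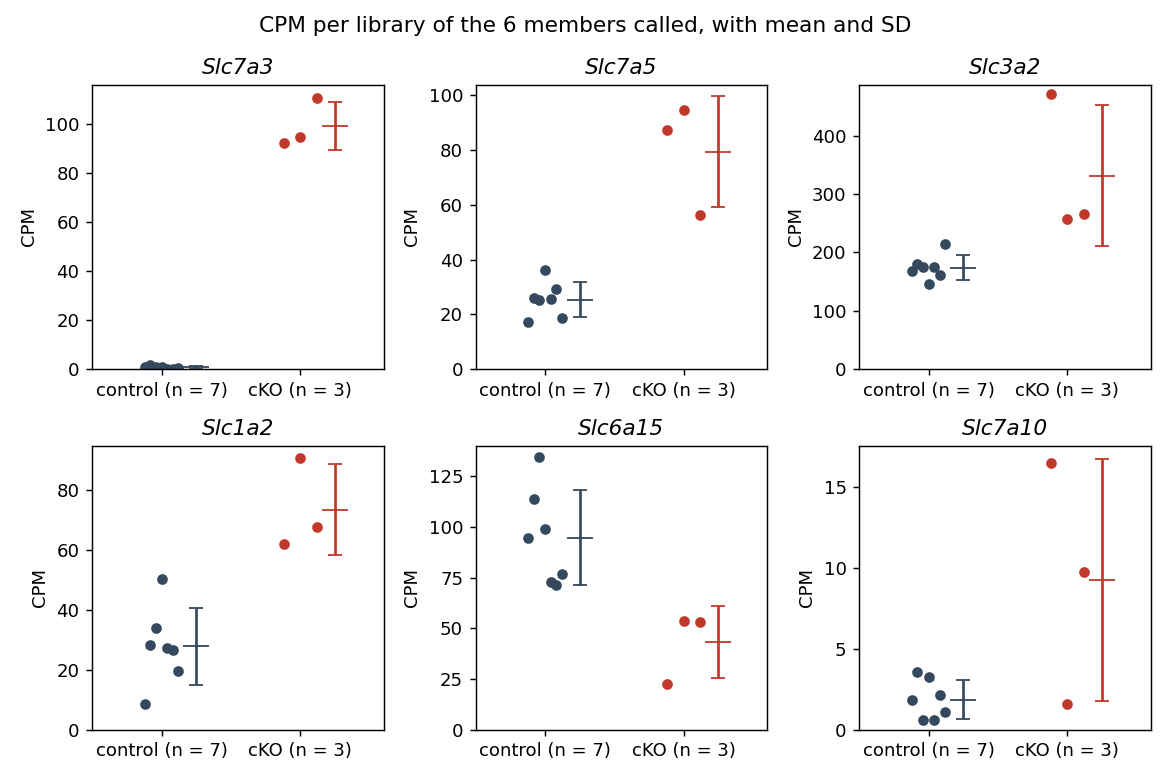
CPM per library (y axes, each from 0) of the 6 carriers called, with dark points for the 7 controls, red points for the 3 cKO libraries, and the mean and SD beside each group. The groups do not overlap for Slc7a3, Slc7a5, Slc3a2, Slc1a2 and Slc6a15, and 1 cKO library of Slc7a10, at 1.58 CPM, lies within the control range.

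Among the glutamate transporters, Slc1a2 rose in cKO. It encodes GLT-1, the main glutamate transporter of mature astrocytes. It was at 62.1, 90.6 and 67.5 CPM in cKO replicates 1, 2 and 3, and ran from 8.71 to 50.3 CPM in controls with a median of 27.4 CPM. Each cKO library was above each control, but the controls themselves varied widely (coefficient of variation 45.9%). The log2 fold change was 1.38 (SE 0.30, 95% confidence interval 0.74 to 2.02, adjusted p = 0.0157 by edgeR), and without cKO replicate 2 it was 1.198 and just missed the threshold (adjusted p = 0.0571 by edgeR). Slc1a3, encoding GLAST, the glutamate transporter of radial glia, was the highest of this group per length and measured 84.7 to 181 CPM in cKO and 90.7 to 169 CPM in controls (log2 fold change 0.10, 95% confidence interval -0.38 to 0.58, adjusted p = 0.880 by edgeR). None of the 9 tested markers of radial glia and astrocyte precursors, a list that includes Slc1a3 itself, was called by edgeR, DESeq2 or limma (2 with an unadjusted p under 0.05). All 11 markers listed, tested or not, summed to 1658 to 2791 CPM in controls and 1478 to 2713 CPM in cKO. Slc1a1, the neuronal carrier EAAC1, had a log2 fold change of -0.26 and was not called, and 31.9% of its exon length overlaps 4430402I18Rik on the opposite strand. Slc1a6 had 34, 5 and 8 reads in cKO and up to 16 in controls (median 3) and was not tested, and Slc1a7 had 1 read.

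The neutral exchangers Slc1a4 and Slc1a5 were both higher in cKO on average without passing the adjusted test. Slc1a4, encoding ASCT1, which exchanges serine, alanine and threonine, was at 55.3, 87.1 and 54.7 CPM in cKO and 32.4 to 59.7 CPM in controls (median 41.4). The groups overlapped through control replicate 3 (log2 fold change 0.59, SE 0.22, adjusted p = 0.176 by edgeR), and without cKO replicate 2 the log2 fold change was 0.34. Slc1a5, encoding the glutamine exchanger ASCT2, was at 8.77, 7.49 and 17.0 CPM in cKO and 0.883 to 11.02 CPM in controls, again overlapping (log2 fold change 0.99, 95% confidence interval 0.03 to 1.95, adjusted p = 0.296 by edgeR), and without cKO replicate 3 the log2 fold change was 0.58.

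Slc6a15 was the carrier that fell. It encodes B0AT2, a sodium-coupled transporter of branched-chain amino acids and proline found in neurons. It measured 22.6, 53.6 and 53.0 CPM in cKO replicates 1, 2 and 3 and 71.2 to 134 CPM in controls, with a median of 94.3 CPM. Every cKO library was below every control, and replicate 1 was the lowest. The log2 fold change was -1.17 (SE 0.27, 95% confidence interval -1.75 to -0.60, adjusted p = 0.0216 by edgeR). Without cKO replicate 1 it was -0.84 (adjusted p = 0.0921 by edgeR), and without control replicates 4 and 7 together it was -1.21 (adjusted p = 0.0519 by edgeR). It stands beside the lower sum of the projection neuron markers, whose part in it was not tested. Its relative Slc6a17, a transporter of synaptic vesicles, had a log2 fold change of -0.03 with an interval of -0.57 to 0.52.

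None of the 4 tested carriers of GABA, taurine or creatine was called by edgeR, DESeq2 or limma, and 1 reached an unadjusted p under 0.05. The 7 interneuron markers summed to 37.0 to 104 CPM in cKO and 13.6 to 52.4 CPM in controls, and 1 of the 6 tested, Dlx2, rose, while 4 of the 6 had an unadjusted p under 0.05 (median log2 fold change 1.21). The part of this shift in the values of these carriers was not tested. The taurine transporter Slc6a6, the highest of this group per length, had a log2 fold change of -0.10 with an interval of -0.49 to 0.30. The creatine transporter Slc6a8 and the GABA transporter Slc6a11 had log2 fold changes of 0.44 and 0.69 and were not called.

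Summed per length, the Slc38a family was the most abundant group in controls and came after only the heavy chains in cKO, and none of its 7 tested members was called by edgeR, DESeq2 or limma or reached an unadjusted p under 0.05. Their log2 fold changes ran from -0.37 to 0.86, with 5 below 0 and 2 above, and the upper end belongs to Slc38a6, which passed the filter only through its cKO reads. Slc38a2, encoding SNAT2, measured 183 to 319 CPM in cKO and 203 to 357 CPM in controls (log2 fold change -0.14, 95% confidence interval -0.55 to 0.27). Slc38a1, encoding SNAT1, measured 201 to 240.5 CPM in cKO and 183 to 317 CPM in controls (log2 fold change -0.31, 95% confidence interval -0.67 to 0.04, adjusted p = 0.378 by edgeR). Both intervals leave out a change of 1 log2 unit. Summed over the family, the level per length was 62.8 ± 5.60 in controls (SD, n = 7) against 56.5 ± 11.2 in cKO (SD, n = 3). The proton-coupled Slc36a1 and Slc36a4 (log2 fold changes 0.38 and 0.30) and the facilitated carriers Slc43a1 and Slc43a2 (-0.18 and 0.59) were not called either.

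In the order of control levels per length, Slc3a2 led at 49.4 CPM per kb, followed by Slc38a2 at 29.6, and the ranges of these over the 7 controls overlapped neither each other nor the next gene. Slc1a3 (15.5), Slc38a1 (15.4), Slc6a6 (13.6), Slc7a6 (12.8), Slc6a15 (12.2), Slc1a4 (10.96) and Slc7a4 (10.4) followed, and each overlapped its neighbour in this order. Slc7a5 was 11th in controls at 6.84 CPM per kb and 4th in cKO at 21.4. All 61 carriers together summed to 205 to 251 CPM per kb in controls and 284 to 359 in cKO. These sums did not overlap. The heavy chains (94.2 in cKO, 49.4 in controls), light chains (40.2 and 24.8) and cationic transporters (40.2 and 13.3) held most of the difference in mean. The light chain sums overlapped (34.3 to 47.3 in cKO, 16.2 to 35.5 in controls). Within these groups, most of the difference came from the called Slc3a2 (94.1 and 49.4), Slc7a3 (26.2 and 0.154) and Slc7a5 (21.4 and 6.84). The sums are thus not separate from these calls and do not show a rise across the families.

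**Figure D4:**
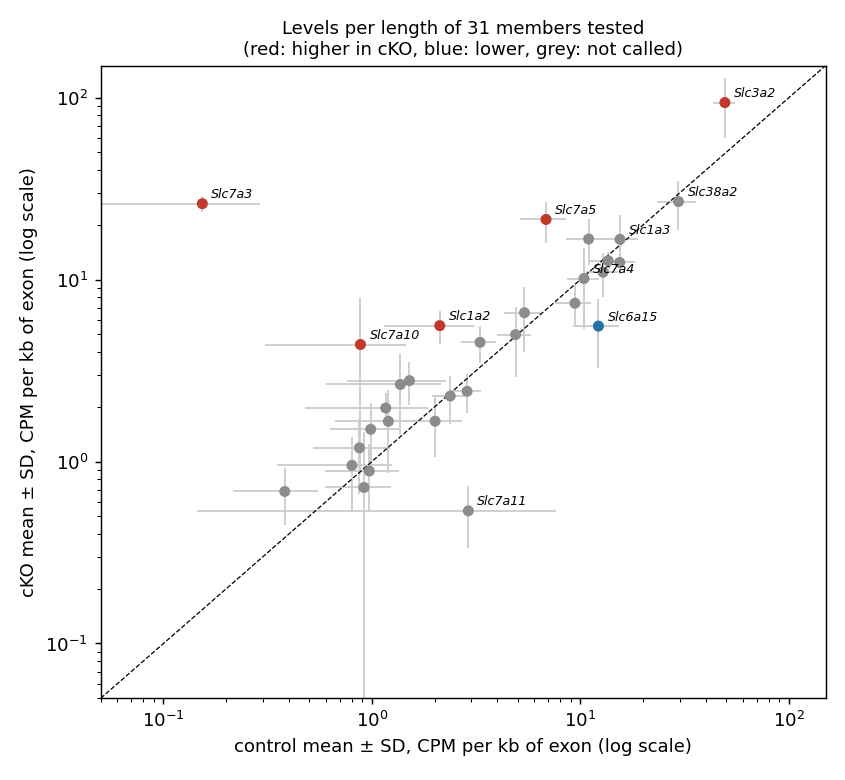
Mean level per length in controls (x axis) and in cKO (y axis), in CPM per kb of exon on log scales, for the same 31 carriers, with SD bars (cut short where they would reach 0), the dashed line of equal levels, red for carriers called higher, blue for lower and grey for the rest. Slc7a3 leaves the line by the most, from 0.154 to 26.2, and the abundant Slc38a2 and Slc1a3 lie near it.

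The CPM of the 6 called carriers, cKO mean against control mean, are given here within each range of the share of reads outside genes. Where the groups do not overlap, the direction within a range follows from that. In the lower range, which holds 1 cKO library, Slc7a3 was at 110.3 CPM against 0.627, Slc7a5 at 56.4 against 22.7, Slc3a2 at 266 against 181 and Slc1a2 at 67.5 against 20.8. In the higher range they were at 93.3 against 0.520, 91.0 against 29.0, 365 against 166 and 76.3 against 37.2 CPM. Slc6a15 was at 53.0 against 89.0 and 38.1 against 102 CPM. Slc7a10 was at 9.76 against 2.15 and 9.05 against 1.47 CPM.

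The 29 carriers that were not tested had a mean of at most 8.40 reads, and 8 of them (Slc7a9, Slc7a12, Slc7a13, Slc7a15, Slc6a7, Slc6a12, Slc6a14 and Slc36a2) had no read in any library. The lowest mean among those tested was 10.1 reads, for Slc38a6. Slc7a7, encoding the light chain y+LAT1, had 5, 12 and 12 reads in cKO and 0 to 5 in controls, so that only control replicate 6 reached a cKO value. Slc38a4, encoding SNAT4, had 18, 11 and 1 reads in cKO and 0 to 3 in controls. Slc6a5, the neuronal glycine transporter GlyT2, had 15, 0 and 1 reads in cKO and none in controls, so nearly all of its reads came from cKO replicate 1. The glycine transporter Slc6a9, of which 27.8% of the exon length overlaps Ccdc24 on the opposite strand, had 25, 6 and 6 reads in cKO and up to 10 in controls (median 2). The monoamine carriers Slc6a2, Slc6a3 and Slc6a4 had 1, 10 and 24 reads over all 10 libraries.

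Genes around the carriers were described from lists. Over all 11551 genes tested, 2.27% were called higher and 0.883% lower by edgeR, and 16.4% had an unadjusted p under 0.05. Of 20 other amino acid carriers tested, such as the mitochondrial and vesicular ones, none was called by edgeR, DESeq2 or limma, and 2 had an unadjusted p under 0.05 (median log2 fold change -0.02). Of 19 tested partners and regulators of the carriers, none was called by edgeR or limma and 1 by DESeq2, and 5 had an unadjusted p under 0.05 (median log2 fold change 0.07). Of 34 tested genes through which mTORC1 senses amino acids, 1 rose, near the share over all genes, and none fell. The gene that rose was Sesn2, a leucine-binding inhibitor of that pathway. It had 24.4 to 57.3 CPM in cKO, at most 10.3 CPM in controls and a log2 fold change of 2.70 (adjusted p = 9.40e-05 by edgeR). Of 19 tested genes of the amino acid deprivation response, 8 rose and none fell, with a median log2 fold change of 0.74 against 0.01 over all genes. They included Chac1, which degrades glutathione (4.21), Eif4ebp1, an inhibitor of translation initiation (3.04), Asns, the asparagine synthetase (1.51), and Cth, which makes cysteine (2.71). Atf4, the transcription factor at the centre of this response, measured 286 ± 42.2 CPM (SD, n = 3) against 191 ± 57.3 (SD, n = 7) and was not called (log2 fold change 0.59, adjusted p = 0.143 by edgeR). The lists were chosen with earlier results of these libraries known, so their direction is not independent evidence.

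The amino acid response element bound by Atf4 and its partners has the letters TGATGNAA, or TTNCATCA on the other strand, where N is any base. Promoter windows of RefSeq (GRCm38.p6, 250 bases before to 50 after the transcript start) were given for 43 of the 61 carriers, and the letters, searched on both strands, stood in 1304 of 32851 windows of all genes (3.97%). They stood in 5 of 64 windows of the carriers, which belong to Slc7a11, Slc1a4, Slc7a7 and Slc6a21. Slc7a3, Slc7a5 and Slc6a15 had no window, so their promoters were not searched. The windows of the 3 called carriers that have one (Slc3a2, Slc1a2 and Slc7a10) did not hold these letters. The stretches of 3 carriers discussed above are shown on the strand of the gene, 5′ to 3′ with the matched letters in capitals, next to those of Asns and Chac1, which rose. Of the 20 deprivation genes with a window, 6 have one that holds the letters, and Asns and Chac1 were picked from these. This is a count of genes, and the 3.97% is a share of windows, so they cannot be compared directly. The stretches shown lie at chr3:50443637-50443695 (Slc7a11, minus strand), chr11:20332694-20332733 (Slc1a4, minus), chr14:54417922-54417961 (Slc7a7, minus), chr6:7693209-7693248 (Asns, minus) and chr2:119351033-119351072 (Chac1, plus).
Slc7a11: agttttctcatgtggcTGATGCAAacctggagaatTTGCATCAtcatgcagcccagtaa
Slc1a4: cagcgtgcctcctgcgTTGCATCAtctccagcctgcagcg
Slc7a7: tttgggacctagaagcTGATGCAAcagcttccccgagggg
Asns: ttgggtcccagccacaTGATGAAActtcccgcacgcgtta
Chac1: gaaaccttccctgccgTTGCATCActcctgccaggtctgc
Slc7a11 holds the letters on both strands, 66 and 47 bases before the start, and is the carrier whose controls fell into separate ranges. In Slc1a4 the match begins 4 bases before the start. A match describes the letters in the window and does not show binding.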

How the data were processed

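Strand-independent read counts per gene were analysed for 10 libraries. The authors deposited raw counts, made after merging technical replicates with samtools 1.8 and conversion to fastq with bedtools 2.26.0, by STAR 2.5.0c with single-alignment reads only, on GRCm38 and GENCODE M16. The libraries carry no molecular identifiers, so counts are of reads and not of molecules. Reads that touch 2 genes are left out, which lowers genes with antisense neighbours. Symbols, positions and exon lengths came from GENCODE M21. Genes with a mean under 10 reads were removed, and the other 11551 were fitted with edgeR 4.0.16 (TMM scaling, quasi-likelihood test, genotype as the only term), with Benjamini-Hochberg adjustment over all of them and a threshold of 0.05. Confidence intervals are 95% intervals from that fit. CPM used TMM-scaled library sizes, and levels per length were CPM per kb of merged exon. DESeq2 1.42.0, limma 3.58.1, other filters and scalings, the summed stranded columns, a replicate block and leaving out each library were alternatives, and the fit was checked on simulated data. The members, gene lists and tests were chosen with earlier results of these data known. Genes named were those with an unadjusted p under 0.05, the 3 given markers, the member with the highest control level in each role group, and up to 4 called genes per list. Others are named after their values were seen. Of the genes this rule names, 2 are not reported here. Libraries with the same replicate number did not deviate together, so they were not treated as pairs. No 2 libraries of the same genotype agreed within counting noise, so each was counted once.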

Additional observations from a re-analysis of the deposited data

Results flagged for a closer look

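A sample far from the others of its group was searched for among the 7 controls of each of the 32 carriers tested, where chance marks about 1 in 20 groups. Slc43a1, a carrier of large neutral amino acids, stood at 10.1 CPM in control replicate 4, and the other controls lay between 3.91 and 6.47 CPM. Slc38a10 stood at 43.9 CPM in control replicate 3, with the others between 26.8 and 31.1 CPM. Slc7a11 was not marked in this way because 2 controls, and not 1, stood apart.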

How the results depend on the processing

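The direction and call of Slc7a3 and Slc7a5 were the same in all 21 alternatives, with log2 fold changes of 6.72 to 7.54 for Slc7a3. The number of carriers called higher was 5 in the main test, 4 to 5 on leaving out 1 library, 8 with no filter on low counts (which adds Slc38a4, Slc7a7 and Slc6a5), and 3 both with a replicate block over the libraries numbered 1 to 3 and with these libraries and no block. The number called lower was 1, 0 to 1 on leaving out 1 library, 2 with no filter (which adds Slc7a11) and 0 without control replicates 4 and 7. Over all genes, 701 were called higher and 260 lower with no filter, 300 and 210 by DESeq2, and 141 and 72 with the block. Same-numbered libraries had correlations of deviations of 0.041, -0.10 and -0.21, so the numbers do not pair them. Slc3a2 was at 0.88 with the block (adjusted p = 0.0767 by edgeR) and at 0.93 with these libraries and no block. With the stranded columns summed, Slc7a10 was not called and Slc6a9 was (log2 fold change 1.76, adjusted p = 0.0476 by edgeR). Signs turned for carriers that were not called. Slc1a3 was at -0.037 with the block, and its range on leaving out 1 library was -0.12 to 0.38. Slc38a2 ranged from -0.41 to 0.020 and Slc7a4 from -0.45 to 0.27 on leaving out 1 library, and Slc7a4 was at 0.020 with the share of reads outside genes as covariate and at 0.0027 without control replicates 4 and 7. Slc7a11 was at 1.71 without these controls and at 1.78 in both fits of the libraries numbered 1 to 3, which hold neither. The causes of the other changes were not tested. Settings without control replicates 4 and 7 and without the block were chosen after seeing the data.

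Read depth limits the carriers under the filter and the control levels of Slc7a3 and Slc7a10, which rest on few reads. Replicates are single embryos, and the median standard error of the log2 fold change was 0.27 over all genes tested.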
